A study of Mus musculus with 9 samples.

Results

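Neuroendocrine cells release peptides and amines, and 10 mouse genes of this kind were followed through organoids treated with GSK, organoids of small cell lung cancer (SCLC) and organoids of normal lung (Normal). The genes were Calca, Calcb, Grp, Nmb, Cartpt, Gal, Npy and Nts, which encode peptide precursors, and Ddc and Tph1, which encode enzymes of amine synthesis. They were taken by symbol, and each matched 1 of the 57010 genes listed in both comparison tables. Averaged over its 6 libraries, the level reached 10 normalized counts for 7 members in GSK against SCLC (Calca, Grp, Nmb, Gal, Npy, Ddc and Tph1) and for 4 members in SCLC against Normal (Calca, Grp, Nmb and Ddc). Calcb, Cartpt and Nts lay under 10 in both.

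The study sequenced RNA of 9 mouse organoid libraries in 3 groups of 3, and organoids are cell cultures grown in 3 dimensions. The GSK libraries came from SCLC organoids given a compound that the labels name only GSK, with no dose or time, the SCLC libraries from SCLC organoids, and the Normal libraries from normal lung organoids. Genotype, strain, age, tumour line and any pooling are not given in the labels used here. Nothing there says whether the 3 libraries of a group came from separate animals or cultures, so the p-values measure the spread between these libraries, which may be technical.

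In the lung, neuroendocrine cells are rare epithelial cells of the airway that sense their surroundings and signal through granules filled with peptides and amines. Precursor proteins are cut at basic residues inside the granules by prohormone convertases, trimmed by carboxypeptidase E, and often amidated at their end to become active. Serotonin and dopamine are made in the cytosol, where a hydroxylase (Tph1 for tryptophan outside the brain, Th for tyrosine) acts first and the decarboxylase Ddc second. Calcitonin gene-related peptide, gastrin-releasing peptide and serotonin are classic products of these cells, and SCLC, a tumour with neuroendocrine features, is known for making gastrin-releasing peptide.

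The promoters of the 5 members whose changes are described most closely are shown because they changed in different comparisons: Ddc and Calca between SCLC and Normal, and Calca, Gal, Npy and Tph1 between GSK and SCLC. Each line gives the 250 bases before the outermost start site, from RefSeq in build GRCm38.p6, which is not the build to which the reads were aligned. Capitals mark TGACG, the core of the cyclic AMP response element, and TATAAA, the letters of a TATA box, each on either strand. A match of letters does not show that the site is used.
Ddc (chr11:11898145-11898394, minus strand): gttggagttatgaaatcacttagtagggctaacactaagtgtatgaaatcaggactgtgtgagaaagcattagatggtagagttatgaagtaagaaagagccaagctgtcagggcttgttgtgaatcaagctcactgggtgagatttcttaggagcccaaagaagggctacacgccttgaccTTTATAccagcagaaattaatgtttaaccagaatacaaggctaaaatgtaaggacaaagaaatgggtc
Calca (chr7:114636358-114636607, minus strand): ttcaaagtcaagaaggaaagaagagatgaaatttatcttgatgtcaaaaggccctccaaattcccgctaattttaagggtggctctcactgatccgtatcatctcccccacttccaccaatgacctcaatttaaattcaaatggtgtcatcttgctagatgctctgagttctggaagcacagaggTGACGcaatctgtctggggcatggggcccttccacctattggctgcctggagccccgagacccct
Gal (chr19:3414545-3414794, minus strand): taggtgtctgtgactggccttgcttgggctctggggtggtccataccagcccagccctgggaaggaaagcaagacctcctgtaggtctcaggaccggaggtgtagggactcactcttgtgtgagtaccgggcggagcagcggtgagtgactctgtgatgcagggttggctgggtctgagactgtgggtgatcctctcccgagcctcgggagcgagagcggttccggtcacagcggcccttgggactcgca
Npy (chr6:49822460-49822709, plus strand): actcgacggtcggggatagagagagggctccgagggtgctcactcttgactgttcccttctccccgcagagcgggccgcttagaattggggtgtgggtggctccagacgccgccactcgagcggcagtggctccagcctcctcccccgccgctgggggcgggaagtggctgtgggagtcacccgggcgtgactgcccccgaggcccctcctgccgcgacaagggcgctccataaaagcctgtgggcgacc
Tph1 (chr7:46672538-46672787, minus strand): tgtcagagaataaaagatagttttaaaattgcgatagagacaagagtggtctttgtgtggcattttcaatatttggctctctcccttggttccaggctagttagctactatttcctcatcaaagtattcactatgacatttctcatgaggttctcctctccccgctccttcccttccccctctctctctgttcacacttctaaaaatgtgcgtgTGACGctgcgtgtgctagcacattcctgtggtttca

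Of the 10 members, 8 matched a RefSeq promoter that could be searched, with 10 start sites between them. TGACG stood 65 bases before the Calca start and 36 bases before the outermost Tph1 start, and it was also found before Nts (166 bases), before Cartpt and at 3 places before the inner Tph1 start. In all, 5 of the 10 windows of the members held it, and 17.8% of all 32851 promoters did in windows of the same length. TATAAA stood 68 bases before the outermost Ddc start, on the strand opposite to the one shown, against a share of 12.4% of all promoters. The full element TGACGTCA, which contains TGACG, was found before Cartpt and in 1.55% of all promoters. The E-box CAGCTG was found before Nts (13.0% of all promoters) and the E-box CAGATG before Cartpt (14.4%). The Gal, Npy and Nmb windows held none of these letters. The windows also differed in base composition: Npy had 69.2% G and C and Gal 62.4%, against 48.0% for Calca, 43.6% for Tph1 and 40.8% for Ddc before the outermost starts, with a median of 52.4% over all promoters. The windows before the inner starts of Tph1 (58.8%) and Ddc (56.0%) lay above that median.

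Values are from the authors' own comparisons of 3 libraries against 3, which give each gene a mean over 6 libraries and a log2 fold change, with no column for a single library. Group levels are the means that these imply, in normalized counts, and the range beside a level is 1 standard error either way, derived from the authors' standard error of the fold change. Both groups of a comparison share a single dispersion per gene, so a range is not the spread of its own group. For Calca in SCLC the range was 605 to 1398 in SCLC against Normal and 812 to 1202 in GSK against SCLC. The control of the GSK table matched the SCLC group of the other table over 13634 genes (SD of the log2 ratio 0.0084, against 2.02 for the GSK arm), with levels 1.08-fold higher, so it was taken as the SCLC group. Implied totals per library were 31919648 normalized counts in GSK against 45333553 in SCLC, and 42007045 in SCLC against 44706821 in Normal. As a check of the label, the summed level of 8 neuroendocrine markers, among them Insm1, Chga and Syp, was 144658 in SCLC against 93.5 in Normal, with all 8 higher in SCLC and 3 of them under a mean of 1 in Normal. In GSK the same sum was 64699, against 156160 in SCLC of that table, with 4 markers lower and Neurod1 higher. In bulk RNA, fewer cells of a type and less RNA per cell cannot be told apart.

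**Figure D1:**
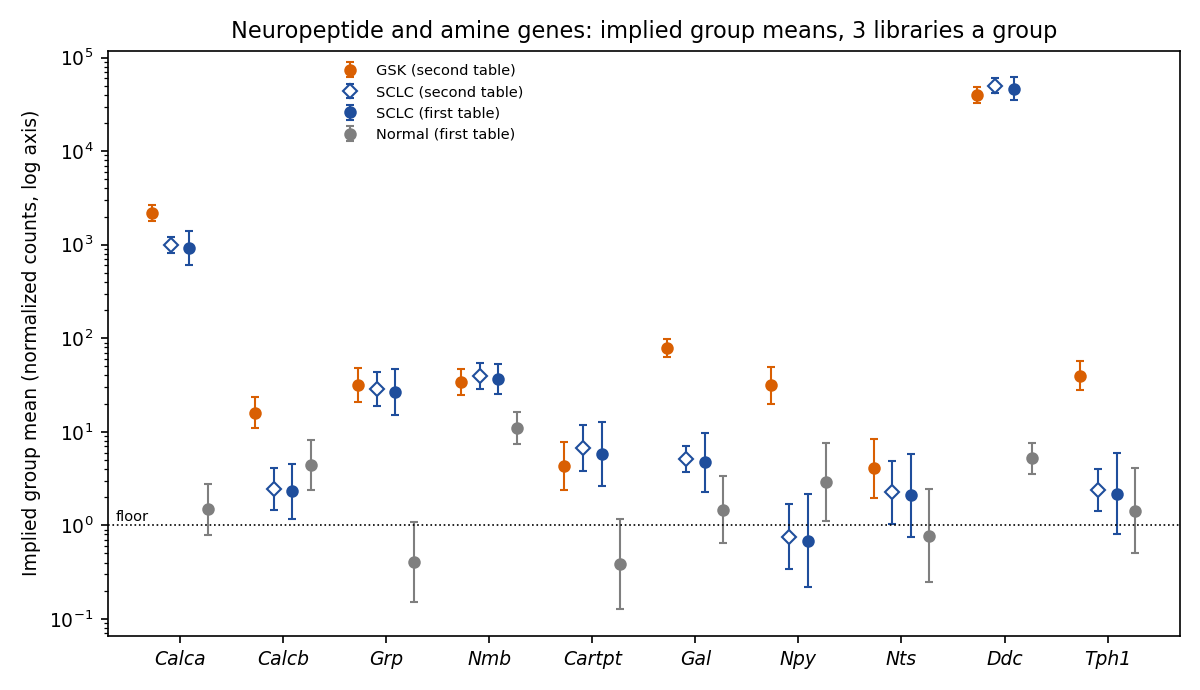
Implied group means of the 10 genes in normalized counts on a log axis, with bars of 1 standard error either way, open diamonds for SCLC of the GSK table, filled blue circles for SCLC of the other table, and the dotted floor at a mean of 1 (3 normalized counts over 3 libraries). GSK levels of Gal, Npy and Tph1 (78.6, 31.4 and 39.7) stand above both other groups, and Ddc levels of 39680 in GSK and 50298 in SCLC stand far above 5.20 in Normal.

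SCLC organoids carried a few of these transcripts at high levels, and most of the list at hardly any. Ddc, the decarboxylase that makes dopamine and serotonin, averaged 46410 (34958 to 61614) in SCLC and 5.20 (3.55 to 7.60) in Normal, a log2 fold change of 13.12 ± 0.68 in the authors' deposited table (SE, adjusted p = 9.72e-80). Calca, whose transcript is spliced into calcitonin or calcitonin gene-related peptide, averaged 920 (605 to 1398) in SCLC and 1.48 (0.789 to 2.79) in Normal, and rose by 9.28 ± 1.09 in the authors' deposited table (adjusted p = 2.65e-16). For both genes the ranges of the groups were far apart. Calcitonin and calcitonin gene-related peptide transcripts were counted together as 1 gene.

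Both bombesin-like peptide genes were also higher in SCLC, at levels per kilobase of exon far under those of Ddc and Calca. Grp, the precursor of gastrin-releasing peptide, averaged 26.4 (15.0 to 46.7) in SCLC and 0.40 (0.15 to 1.09) in Normal, with a log2 fold change of 6.03 ± 1.65 in the authors' deposited table (adjusted p = 0.000731). The Normal mean stands for 1.21 normalized counts over 3 libraries, so the ratio of 65.4 has an exact 95% counting interval of 13.8 to 3159, which covers counting error only. Set against the floor of 3 counts over the group, the ratio was 26.4. Nmb, the precursor of neuromedin B, averaged 36.6 (25.5 to 52.6) in SCLC and 11.0 (7.48 to 16.3) in Normal, and rose by 1.73 ± 0.77 in the authors' deposited table (adjusted p = 0.0485). That call ended when fold changes were centred on their median among genes averaging 100 or more, and when every p-value in the authors' deposited table was adjusted together. The adjusted p was 0.0809 after centring (log2 fold change 1.55) and 0.0657 over every p-value of the authors' deposited table.

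The other 6 members did not pass in SCLC against Normal. Cartpt, the precursor of cocaine- and amphetamine-regulated transcript peptide, averaged 5.77 in SCLC and 0.38 in Normal, with 3.91 ± 1.96 in the authors' deposited table (adjusted p = 0.0842). Gal, the galanin precursor, averaged 4.71 in SCLC and 1.47 in Normal, with 1.68 ± 1.59 in the authors' deposited table (adjusted p = 0.391). Levels of Tph1 (2.17 in SCLC, 1.44 in Normal), Nts, the neurotensin precursor (2.09 and 0.77), Npy, the neuropeptide Y precursor (0.69 and 2.91), and Calcb, which encodes a second form of calcitonin gene-related peptide (2.31 and 4.40), had ranges that met between SCLC and Normal. At such levels the 95% intervals of the log2 fold change were wide, from -6.28 to 2.12 for Npy and from -3.47 to 4.67 for Tph1, so differences of several fold in either direction were not detectable at this depth. In all, 4 of 10 members were higher in SCLC and 0 lower, where 50.4% of the 24719 genes tested were called by the authors, with 25.3% higher in SCLC and 25.1% lower. Of tested genes with a Normal mean under 10, which all members but Nmb were, 20.2% were higher in SCLC and 5.27% lower. The median log2 fold change was 1.70 over the members, 1.18 over tested genes with a Normal mean under 10 and 0.10 over all genes tested. A gene near 0 in Normal, such as Grp or Cartpt, reached a tested mean only through its SCLC level. The choice of genes tested therefore raised the 20.2% and the 1.18, and at such levels a fall could hardly be called. Lung epithelium markers moved the other way: the summed level of 9 of them, among them Sftpc and Scgb1a1, was 635 in SCLC against 2809890 in Normal, with all 9 lower. Immune and stromal markers summed to 96.5 in SCLC and 4814 in Normal (6 of 7 lower), the added macrophage markers to 115 and 2130 (5 of 5 tested lower) and the added endothelial markers to 53.2 and 131 (4 of 6 lower). Neuron or glia markers summed to 18429 in SCLC and 3721 in Normal, with 5 of 7 tested higher. The part of these cells in the members' changes was not tested.

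**Figure D2:**
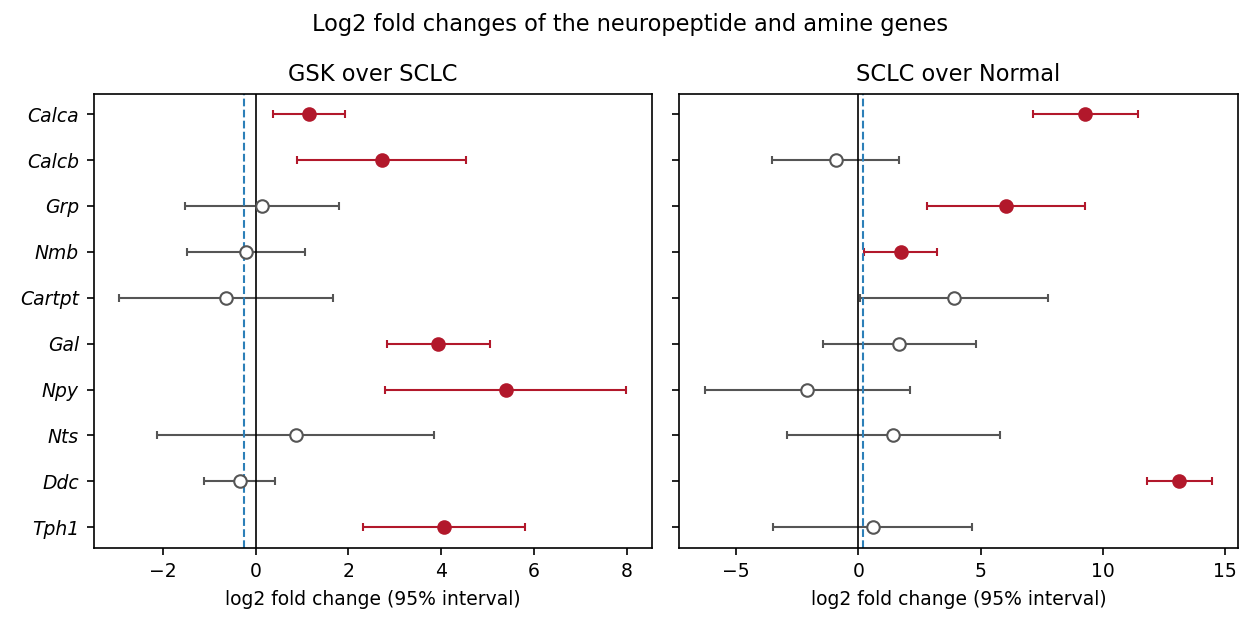
Log2 fold changes of the 10 genes with 95% intervals, GSK over SCLC on the left and SCLC over Normal on the right, with different scales on the x axes. Filled red points have an authors' adjusted p under 0.05, and the dashed line is the median among genes averaging 100 or more (-0.25 on the left, 0.18 on the right). The value farthest from 0 is that of Npy on the left (5.39) and that of Ddc on the right (13.12).

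In organoids treated with GSK, 5 members were higher than in SCLC and 0 were lower. Of all 28376 genes tested, 21.6% were higher and 15.5% lower. Calcb, Gal, Tph1, Cartpt, Nts and Npy averaged under 10 in SCLC, where a fall could hardly be called, so the 0 says little for them. The comparisons of GSK against SCLC and of SCLC against Normal share the SCLC libraries. Gal averaged 78.6 (63.4 to 97.4) in GSK and 5.12 (3.69 to 7.10) in SCLC, and rose by 3.94 ± 0.56 in the authors' deposited table (adjusted p = 5.5e-11), or 15.4-fold. Tph1, the first enzyme of serotonin synthesis outside the brain, averaged 39.7 (27.9 to 56.6) in GSK and 2.38 (1.43 to 3.95) in SCLC, and rose by 4.06 ± 0.89 in the authors' deposited table (adjusted p = 3.79e-05), or 16.7-fold. The ranges of GSK and SCLC lay apart for both genes.

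Npy, which encodes a peptide of sympathetic and brain neurons, averaged 31.4 (19.9 to 49.6) in GSK and 0.75 (0.34 to 1.67) in SCLC, with 5.39 ± 1.33 in the authors' deposited table (adjusted p = 0.000292). The SCLC mean stands for 2.25 normalized counts over 3 libraries, so the ratio of 41.8 has an exact 95% counting interval of 12.7 to 394, and it was 31.4 against the floor of 3 counts over the group. Calcb averaged 16.1 (10.9 to 23.6) in GSK and 2.44 (1.46 to 4.08) in SCLC, and rose by 2.72 ± 0.93 in the authors' deposited table (adjusted p = 0.0119). Calca averaged 2194 (1804 to 2668) in GSK and 988 (812 to 1202) in SCLC, and rose by 1.15 ± 0.40 in the authors' deposited table (adjusted p = 0.0135), or 2.22-fold. Calca and Calcb are neighbours, with 0 protein-coding genes and 2 pseudogenes between them in the RefSeq gene table of GRCm38.p6.

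Grp, Nmb, Ddc, Cartpt and Nts did not pass in GSK against SCLC. Ddc averaged 39680 (32736 to 48096) in GSK and 50298 (41496 to 60966) in SCLC, with -0.34 ± 0.39 in the authors' deposited table (adjusted p = 0.536) and a 95% interval of -1.11 to 0.43. Grp averaged 31.6 in GSK and 28.7 in SCLC, with 0.14 ± 0.85 in the authors' deposited table (adjusted p = 0.923, 95% interval -1.53 to 1.80). Nmb averaged 34.2 in GSK and 39.5 in SCLC, with -0.21 ± 0.65 in the authors' deposited table (adjusted p = 0.84). For these 3 genes the ranges of the groups met. Cartpt (4.28 in GSK, 6.66 in SCLC) and Nts (4.08 and 2.24) were low in both groups.

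The count of 5 of 10 stands beside 37.1% of the 28376 genes tested that were called in the authors' deposited table, 21.6% higher in GSK and 15.5% lower. The members' median log2 fold change was 1.01. It was 0.24 over all genes tested, 0.76 over those with an SCLC mean from 1 to 10 and 5.16 over those under 1. Direction followed level across the table: of tested genes with an SCLC mean from 1 to 10, 19.5% were higher and 0.125% lower in GSK, and of those at 1000 or more, 4.87% were higher and 41.6% lower. Calcb, Gal and Tph1 lay in the first of these classes together with Cartpt and Nts, and Ddc in the last. Of tested genes with an SCLC mean under 1, where Npy lay, 49% were higher. A gene so low in SCLC reached a tested mean only through its GSK level, so that share was raised by the choice of genes tested. Calca lay between 100 and 1000, where 19.8% were higher and 20.3% lower. The median among genes averaging 100 or more was -0.25, and relative to it Calca had a log2 fold change of 1.40 and Gal of 4.19. With totals set equal the Calca value was 1.66, and the share of calls that were higher went up to 81.6% of all calls, with 70.2% after centring and 58.2% as deposited. All 5 members stayed higher under both scalings.

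**Figure D3:**
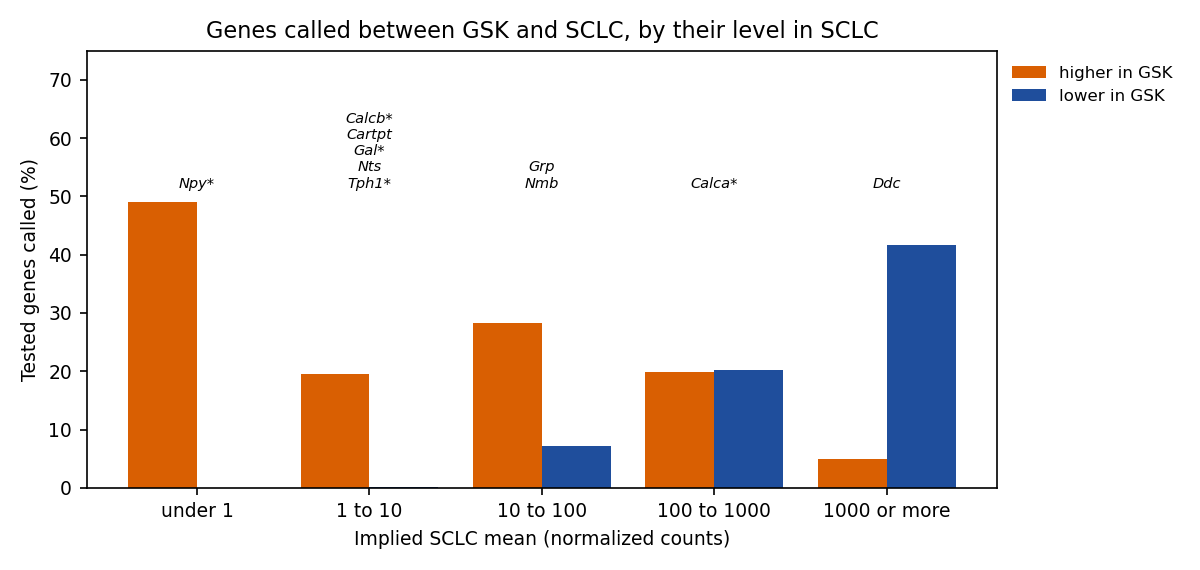
Share of tested genes called higher (orange) or lower (blue) in GSK, in percent, by the implied level in SCLC. The members stand above the class that holds them, with an asterisk where the authors' adjusted p was under 0.05. Genes low in SCLC were called almost only higher, with 19.5% higher and 0.125% lower at means of 1 to 10. A fall could hardly be called at such means.

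Markers of several cell types outside the neuroendocrine lineage were also higher in GSK, while those of others were mixed or did not pass. All 7 immune and stromal markers (Ptprc, Cd68, Adgre1, Col1a1, Col1a2, Pecam1 and Cdh5) were higher in GSK, at 1293 to 12562 each, with a summed level of 34354 in GSK against 104 in SCLC. Ptprc, Adgre1 and Cdh5 lay under a mean of 1 in SCLC. Lists added after the values were seen gave 14854 in GSK against 124 in SCLC for 6 macrophage markers, and 16429 in GSK against 56.8 in SCLC for 6 endothelial markers, with all of both lists higher. Mast cells make histamine and, in mice, serotonin. Of 7 mast cell markers in another added list, Cma1 (55.4 in GSK), Ms4a2 (10.1), Cpa3 (7.77) and Fcer1a (5.27) were higher in GSK, all 7 lay under a mean of 1 in SCLC, and Tpsb2 lay under 1 in both groups. Their sum was 81.6 in GSK against 0.723 in SCLC, beside 39.7 in GSK and 2.38 in SCLC for Tph1. Of 6 added markers of sympathetic neurons and Schwann cells, 3 were tested and 0 passed. Among them Dbh had 1.04 in GSK and 0.272 in SCLC, Sox10 1.09 and 1.03 and Phox2a 875 and 961, and Hand2 was listed at 0. Lung epithelium markers summed to 10238 in GSK and 682 in SCLC, with 8 of 9 higher. Neuron or glia markers summed to 16363 in GSK and 19840 in SCLC, with 2 higher, Map2 among them, and 2 lower, Tubb3 and Slc17a7. Enteroendocrine or tuft cell markers summed to 825 in GSK and 643 in SCLC, with 1 of 3 tested, Cck, higher. The part of these cells in the rise of the 5 members was not tested.

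Per kilobase of annotated exon, the order of levels differed between the groups. In GSK it ran from Ddc (8248 normalized counts per kilobase) through Calca (1208), Gal (92.5), Npy (51.5), Nmb (40.0), Grp (19.8), Calcb (11.8) and Tph1 (5.97) to Cartpt (3.11) and Nts (3.03), and from Gal downwards the ranges of neighbours met. In SCLC, Ddc (10404) and Calca (546) also led, followed by Nmb (46.2), Grp (17.9), Gal (5.97) and Cartpt (4.52), and Calcb, Nts, Npy and Tph1 lay between 1.83 and 0.352. These SCLC levels are those of SCLC against Normal, and there the ranges of neighbours met from Grp downwards. The SCLC ranges of Grp and Gal were narrower in GSK against SCLC. There Grp spanned 18.9 to 43.6 counts over 1.477 kilobases of exon, and Gal 3.69 to 7.10 counts over 0.788 kilobases. Per kilobase these ranges lay apart, so which neighbours met depended on the comparison used. In Normal the order began with Nmb (13.9), Npy (5.13) and Calcb (3.48), and every range met that of its neighbour, so neighbours could not be ordered at this depth. Ddc took 94.2% of the members' summed counts in GSK, 97.9% in SCLC and 17.6% in Normal. Calcb stood at 0.975% of Calca per kilobase in GSK and at 0.335% in SCLC. Exon lengths are unions over all transcripts of GENCODE M21, so the level per kilobase is understated for a gene whose transcripts are each shorter than the union.

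Genes that cut and store the peptides were high in SCLC, and several were lower in GSK. Of 9 processing and amidation genes, 1 was higher and 4 were lower in GSK than in SCLC, and 5 were higher and 2 lower in SCLC than in Normal, in the authors' deposited table. All of them but Qpct averaged 1000 or more in SCLC. Of all tested genes at that level, 41.6% were lower and 4.87% higher in GSK, so the 4 lower genes lay near that share. The convertase gene Pcsk2 had 695 in GSK and 5459.5 in SCLC (-2.97 ± 0.33, adjusted p = 1.82e-17 in the authors' deposited table), while the other granule convertase gene, Pcsk1, had 11394 in GSK and 3183 in SCLC (1.84 ± 0.56, adjusted p = 0.00448 in the authors' deposited table). Pcsk1n, whose product inhibits the Pcsk1 convertase, had 3743 in GSK and 17812 in SCLC, Cpe, carboxypeptidase E, 4202 and 17482, and Scg5, a chaperone of the Pcsk2 convertase, 1482 and 3983, all lower in the authors' deposited table. Pam, the amidating enzyme, had 4059 in GSK and 7103 in SCLC and did not pass (adjusted p = 0.0612 in the authors' deposited table). In SCLC against Normal, Pcsk1n, Pcsk1, Pcsk2, Scg5 and Cpe were higher, and Furin and Qpct, which forms the pyroglutamate end of some peptides, were lower. The shares over all genes tested in that comparison were 25.3% higher and 25.1% lower. Granins are acidic proteins that pack the granules. Of 5 granins all were higher in SCLC than in Normal, Chga with 21409 in SCLC and 1.49 in Normal and Scg3 with 5725 and 0.411. In GSK against SCLC, Scg3 was lower (-0.63 ± 0.27, adjusted p = 0.0491 in the authors' deposited table) and the other 4 did not pass. That call ended with totals set equal (-0.12) and when centred (-0.38).

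Receptors for the members' products included both chains of the calcitonin gene-related peptide receptor, which were higher in GSK. Of 13 tested receptor and partner genes, 5 were higher and 0 lower in GSK than in SCLC, in the authors' deposited table. Calcrl, the receptor chain, had 2967 in GSK and 6.41 in SCLC (8.85 ± 0.58, adjusted p = 2.45e-50 in the authors' deposited table), and Ramp1, its partner, had 277 in GSK and 7.70 in SCLC (5.17 ± 0.54, adjusted p = 4.14e-20 in the authors' deposited table). Ramp2, which turns Calcrl into a receptor for adrenomedullin, had 981 in GSK and 156 in SCLC, the galanin receptor gene Galr2 188 and 70.4, and the neuropeptide Y receptor gene Npy5r 16.8 and 3.57. Calcrl, Ramp1 and Npy5r averaged 1 to 10 in SCLC, where 19.5% of tested genes were higher and 0.125% lower. A fall could hardly be called for genes so low in SCLC. The endothelial and immune markers given above were higher in the same comparison, and their part was not tested. In SCLC against Normal, 6 of 15 tested genes were higher and 5 lower in the authors' deposited table, beside 25.3% and 25.1% of all genes tested. Npy1r, a neuropeptide Y receptor gene (92.1 in SCLC and 1.49 in Normal), Ntsr2, a neurotensin receptor gene (639 and 12.9), Ramp2, Galr3, Nmbr and Galr1 were higher, and the Nmbr call ended when centred. Calcrl (5.95 in SCLC and 232 in Normal), Ramp1 (7.17 and 572), Sort1, Npy2r and Grpr were lower. The immune, stromal, macrophage and endothelial markers that were lower in this comparison are given above, and their part was not tested. Grpr, the receptor for gastrin-releasing peptide, had 0.613 in SCLC and 157 in Normal, opposite in direction to Grp.

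**Figure D4:**
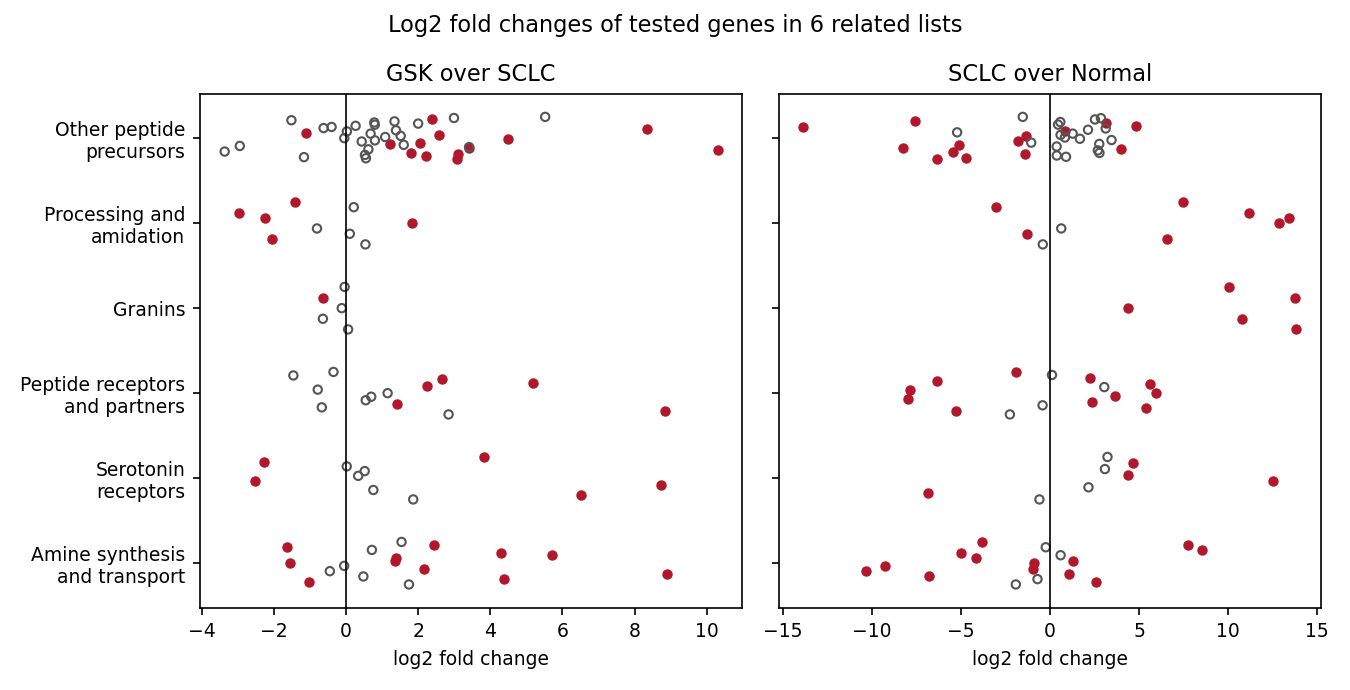
Log2 fold changes of tested genes in 6 related lists, GSK over SCLC on the left and SCLC over Normal on the right, with different scales on the x axes and 1 point per gene. Filled red points have an authors' adjusted p under 0.05. All 5 granins are higher in SCLC than in Normal, and 4 of 9 processing genes are lower in GSK than in SCLC. Of all tested genes with an SCLC mean of 1000 or more, 41.6% are lower in GSK. Over all genes tested, 25.3% are higher in SCLC than in Normal.

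The amine genes differed step by step. Of 17 tested genes of amine synthesis, cofactor supply, transport and breakdown, 8 were higher and 3 lower in GSK than in SCLC, and 5 were higher and 8 lower in SCLC than in Normal, in the authors' deposited table. The shares over all genes tested were 21.6% higher and 15.5% lower in GSK than in SCLC. In SCLC against Normal they were 25.3% higher and 25.1% lower. Th, the tyrosine hydroxylase gene, had 1035 in GSK and 190.5 in SCLC (2.44 ± 0.74, adjusted p = 0.00372 in the authors' deposited table), and 174 in SCLC and 0.8 in Normal in the other table, where it was also higher. Tph2, the tryptophan hydroxylase gene of the brain, had 6.39 in GSK and 2.20 in SCLC and did not pass (adjusted p = 0.341 in the authors' deposited table). Slc18a2, whose product loads amines into vesicles, had 369.7 in GSK and 143 in SCLC, and its relative Slc18a1 had 49.6 and 19.3, both higher in the authors' deposited table. In SCLC against Normal, Slc18a1 had 17.9 in SCLC and 322 in Normal (adjusted p = 9.3e-20) and Tph2 had 2.09 and 29.4 (adjusted p = 1.19e-05), both lower in the authors' deposited table, and Slc18a2 had 133 and 88.2 and did not pass.

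Transporters and breakdown genes did not move as 1 group. The serotonin transporter gene Slc6a4 had 984 in GSK and 599 in SCLC and did not pass (adjusted p = 0.758 in the authors' deposited table), and it was higher in SCLC than in Normal (559 in SCLC and 1.50 in Normal). The noradrenaline transporter gene Slc6a2 had 155 in GSK and 2.96 in SCLC, Hdc, which makes histamine, 3303 and 6.86, and Gad1, which makes the transmitter GABA, 246 and 11.9, all higher in the authors' deposited table. Slc6a3 and Maob were the others that were higher in GSK. The immune, stromal and mast cell markers given above were higher in this comparison too, and their part in these changes was not tested. In Normal, Hdc had 8114, and it was lower in SCLC than in Normal in the authors' deposited table. The cofactor genes Spr and Qdpr were lower in GSK. The count of lower genes was 2 rather than 3 under both other scalings. Of 10 tested serotonin receptor genes, 3 were higher (Htr7, Htr2a and Htr2c) and 2 lower in GSK in the authors' deposited table, Htr3a with 454 in GSK and 2639.8 in SCLC and Htr6 with 12.2 and 59.4. Over all genes tested, 21.6% were higher and 15.5% lower in GSK. Htr2a and Htr2c averaged under 1 in SCLC, where 49% of tested genes were higher and 0% lower. In SCLC against Normal 3 of 8 were higher (Htr3a, Htr4 and Htr6) and Htr2a was lower, with 2447 in SCLC and 0.411 in Normal for Htr3a. The shares over all genes tested were 25.3% higher and 25.1% lower there.

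**Figure D5:**
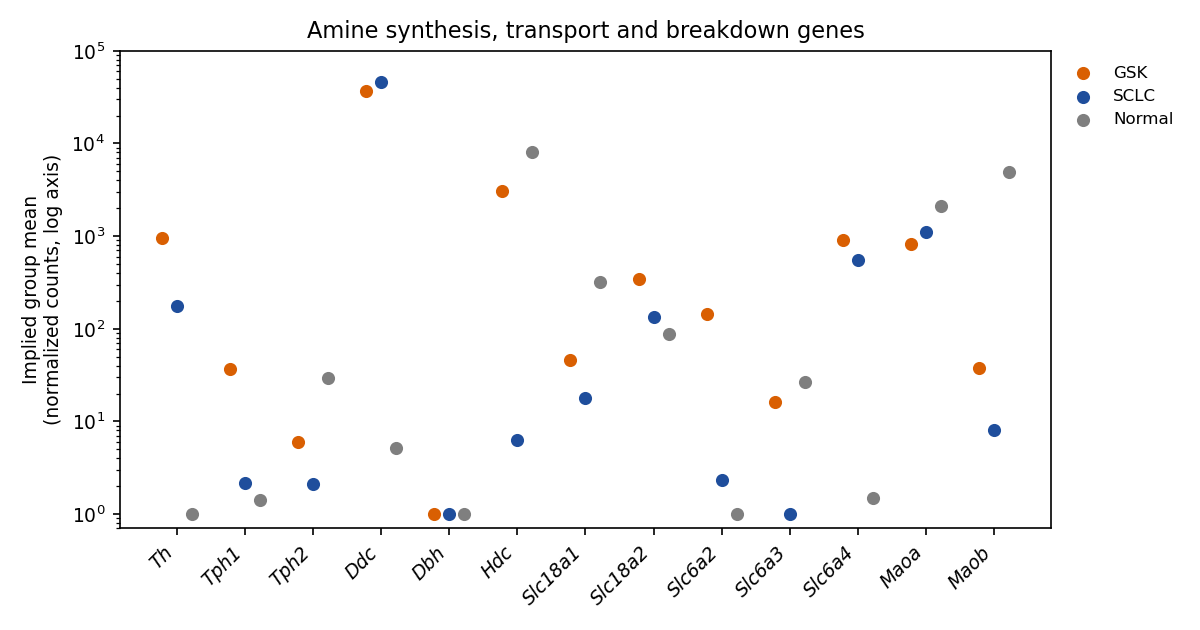
Implied group means of amine genes in normalized counts on a log axis, with means under 1 drawn at 1 and GSK scaled to the first table, without error bars. Ddc is high in GSK and SCLC, while Tph1 and Th are highest in GSK.

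Other peptide precursors were followed as a list of 55 genes. In GSK against SCLC, 12 of 39 tested were higher and 1, Npw, was lower in the authors' deposited table. The shares over all genes tested were 21.6% higher and 15.5% lower. The Npw call ended with totals set equal (-0.61). Edn1, the endothelin precursor, had 391 in GSK and 0.31 in SCLC, Penk, the enkephalin precursor, 28.6 and 0.0886, Edn3, another endothelin gene, 242 and 22.8, and Cck, the cholecystokinin precursor, 59.1 and 6.93. Adm, Apln, Nppb, Gnrh1, Cort, Ghrl, Ucn2 and Nmu were the others that were higher. Edn1, Penk and Nmu averaged under 1 in SCLC, where 49% of tested genes were higher and 0% lower. Cck, Nppb and Ucn2 averaged 1 to 10 there, where 19.5% were higher and 0.125% lower. A fall could hardly be called at such means. Endothelial markers, at a summed level of 16429 in GSK and 56.8 in SCLC, were higher as well, and their part was not tested. In SCLC against Normal, 4 of 34 tested were higher and 10 lower in the authors' deposited table, beside 25.3% and 25.1% of all genes tested. Pomc, the precursor of corticotropin (240.1 in SCLC and 26.8 in Normal), Npw, Crh and Pmch were higher in SCLC, and the Npw call ended when centred. Penk (0.0813 in SCLC and 1198 in Normal), Edn1, the substance P precursor gene Tac1 and Cck were among the lower ones.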

How the data were processed

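RNA of 9 mouse organoid libraries was sequenced on a NovaSeq instrument as paired reads of 150 bp from a stranded mRNA kit, and aligned with STAR 2.7.9a to GRCm39, per the labels and the submitters' processing notes. Neither the counting tool, the test nor the annotation is given in the sources used here. The authors deposited 2 comparison tables, with a signal column (mean of normalized counts over 6 libraries), the log2 fold change and its standard error, a score (their ratio) and p-values, unadjusted and adjusted, per the file headers. Fold changes, standard errors and p-values are the authors'. Group means were implied from the mean and the fold change. Their standard error came from the dispersion that the fold change's error implies for 3 libraries a group, taken as the same in both groups. Because no library values were used, the call was the authors' adjusted p under 0.05, and no count model was run. Depths per library were not analysed here. The floor was 3 normalized counts per group. Intervals of ratios are exact (Clopper-Pearson) on rounded implied totals.

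The computation used Python 3.11.15 with pandas 2.3.3 and scipy 1.17.1. It was run on simulated counts of genes averaging 10 or more, with standard errors built by the same formula that it inverts. That run does not test levels and ranges at lower means. The members and the lists were chosen with earlier results of these data known. The text names all members, and from each list up to 4 genes whose log2 fold change was farthest from 0 among called genes averaging 10 or more, and all of them where 5 or fewer were called in a direction. Any other list gene named, such as Pam, Tph2, Dbh, Slc18a1, Slc18a2 and further precursors, was chosen after its values were seen, and so were the mast cell, endothelial, macrophage and sympathetic lists. The scaling alternatives were also run on the lists, chosen after seeing the data. Symbols came from the tables, promoters from RefSeq and exon lengths from GENCODE M21, both in GRCm38. A few genes of the lists and 1 of the genes nearest in pattern are not reported here. Searches for the REST site and for protein motifs were not run.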

Additional observations from a re-analysis of the deposited data

How the results depend on the processing

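No paired analysis was possible because the tables hold no column for a single library, and leaving out a replicate was not run for the same reason. The members counted as higher in GSK than in SCLC came to 3 rather than 5 with a threshold of 0.01 and with a test for log2 fold changes beyond 1 in size, in both cases without Calca and Calcb, and to 4 when genes with a mean under 10, such as Calcb, were left out. In SCLC against Normal the count of 4 became 3, without Nmb, under 4 of the 6 alternatives. No member was called lower under any of the 6, but a fall could hardly be called for members low in the reference group. In the test for changes beyond 1 the genes called were 3570 in GSK against SCLC (3044 higher, 526 lower) and 6134 in SCLC against Normal (2847 higher, 3287 lower). Scaling to total counts left 1970 genes lower in GSK. Signs turned for Ddc (0.16 with totals set equal) and Nmb (0.037 when centred, 0.30 with totals set equal) in GSK against SCLC, neither of which passed. With a floor of 10 counts per group, the ratio of Npy was 9.43 in GSK against SCLC and that of Grp 7.93 in SCLC against Normal. Levels under about 10 limit what could be seen for Calcb, Cartpt and Nts.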

Other observations

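Set on the scale of the first table, GSK levels of several members lay above those of Normal as well as those of SCLC, a comparison across tables for which no p-value was computed. Gal stood at 72.9 in GSK and 1.47 in Normal, Tph1 at 36.8 and 1.44, Npy at 29.1 and 2.91, and Calcb at 14.9 and 4.40. Nmb differed less, with 31.7 in GSK, 36.6 in SCLC and 11.0 in Normal.

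Among the 3 genes whose pattern over the groups was nearest to that of Ddc, the member with the highest SCLC level, were Scg3, a granin (distance 0.685) and Tub, the tubby gene (0.688). Distance was Euclidean over 4 centred log2 levels (Normal, SCLC of each table and GSK) among 15241 genes, with means under 1 set to 1. Scg3 had 3993 in GSK against 6175 in SCLC in the second table, and 5725 in SCLC against 0.41 in Normal in the first.

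Calca and Calcb are paralogs. Of the 1260 stretches of 50 bases in Calcb transcripts of GENCODE M21, 12 (0.952%) also occurred in Calca transcripts, and of stretches of 100 bases 0 did. No other pair of members shared a stretch of 30 bases. The reads were 150 bp long and paired. Per kilobase of exon, Calcb had 3.48 normalized counts (1.87 to 6.50) and Calca 0.882 (0.468 to 1.66) in Normal, an order opposite to that in GSK and SCLC. The Normal values stand for only 13.2 normalized counts of Calcb and 4.45 of Calca over 3 libraries. The ranges are 1 standard error either way, and the order was not tested.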
